A study of Mus musculus with 12 samples.

Results

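*AW011738* and *Gm11716* are a pair of little-studied transcripts whose read counts were higher in the left atria (LA) of iNICD mice than in those of control mice, and they are described here beside *Malat1*, *Neat1*, *Meg3* and *H19*, which are abundant or imprinted long noncoding RNAs. The first 2 genes were chosen by their normalized read counts, which were higher in these same iNICD libraries, so that their difference between the groups is given as a description without a test, while the other 4 were named for their abundance or imprinting and were tested. The 6 genes are 6 of 54658 gene names in the count table, and all 6 were among the 13541 names with a level above 1 CPM (counts per 1000000 counted reads) in 6 or more libraries, the set that was tested. The iNICD mice carried *αMHC-rtTA*, which drives the reverse tetracycline transactivator from a cardiomyocyte promoter, together with a *tetO_NICD* transgene for the intracellular domain of Notch1. The controls were littermates that carried *αMHC-rtTA* alone. Mice of both groups were 2 to 3 months old and ate doxycycline chow for 3 weeks with no washout, so that the transactivator and the drug were common to all of them. Each of the 12 libraries came from the LA of 1 mouse, 6 per group, with 4 females and 2 males among the controls and 3 females and 3 males among the iNICD mice.

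Long noncoding RNAs are transcripts that are not known to be translated and that act, where a role is known, through their sequence, their folding or the act of their transcription. *Malat1* lies in nuclear speckles, where splicing factors are stored, and *Neat1* is the RNA on which paraspeckles are built. *Meg3* and *H19* are expressed from the maternal chromosome of the imprinted Dlk1-Dio3 and Igf2-H19 domains, and *H19* also serves as the host of a microRNA. When Notch is cleaved, its intracellular domain binds the DNA-binding protein RBPJ and, with Mastermind coactivators, activates transcription of target genes.

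The annotations did not place the 2 chosen transcripts in the same class. On mm10 (GRCm38), *AW011738* (ENSMUSG00000078349) lies at chr4:156203304-156205151 on the plus strand as a single exon of 1848 bases. GENCODE M21 types it as protein coding, with a coding sequence of 477 bases, whereas RefSeq types the same locus as lncRNA, so that calling it noncoding goes against GENCODE. *Gm11716* (ENSMUSG00000086298) lies at chr11:107338050-107344804 on the plus strand, has 2 exons of 172 and 298 bases, and is typed as antisense by GENCODE and as lncRNA by RefSeq. It lies wholly inside *Pitpnc1*, which encodes a phosphatidylinositol transfer protein and is transcribed from the opposite strand at chr11:107207892-107470699. None of the exon bases of *Gm11716* (0 bases in either exon) falls in an exon of *Pitpnc1*, the nearest of which is 412 bases from exon 1 and 3284 bases from exon 2, so that both exons sit in *Pitpnc1* introns. *Malat1* (chr19:5795690-5802672, minus strand) and *Neat1* (chr19:5824708-5845478, minus strand) are neighbors, with 22035 bases between them. *Meg3* lies at chr12:109541001-109571726 on the plus strand and *H19* at chr7:142575529-142578143 on the minus strand, and GENCODE types all 4 of these comparison genes as lincRNA. The microRNA genes within *Meg3* (*Mir770* and *Mir1906-1*) and within *H19* (*Mir675*) had 0 counts in every library. Each lies inside its host on the same strand, where a read can be ambiguous between microRNA gene and host. The 0 counts therefore do not show that these microRNAs were absent.

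The RefSeq promoter windows of the 2 chosen transcripts, 250 bases before the start to 50 bases after it on GRCm38.p6, are shown because a Notch transgene was switched on in these hearts and RBPJ is the factor that brings Notch to DNA. Capitals mark a match to the RBPJ motif GTGGGAA, or to its reverse complement TTCCCAC, found on either strand. The first exon of *Gm11716* is shown as well, since the GENCODE start of this gene lies inside its longer RefSeq span, which begins at chr11:107335924.
AW011738 promoter, chr4:156203034-156203333, plus strand: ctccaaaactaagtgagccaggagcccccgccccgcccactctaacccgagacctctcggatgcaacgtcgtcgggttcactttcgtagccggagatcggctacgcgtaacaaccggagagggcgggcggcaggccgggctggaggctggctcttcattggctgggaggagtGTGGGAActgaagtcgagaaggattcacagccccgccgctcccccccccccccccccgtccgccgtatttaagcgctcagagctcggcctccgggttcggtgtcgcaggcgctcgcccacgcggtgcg
Gm11716 promoter, chr11:107335674-107335973, plus strand: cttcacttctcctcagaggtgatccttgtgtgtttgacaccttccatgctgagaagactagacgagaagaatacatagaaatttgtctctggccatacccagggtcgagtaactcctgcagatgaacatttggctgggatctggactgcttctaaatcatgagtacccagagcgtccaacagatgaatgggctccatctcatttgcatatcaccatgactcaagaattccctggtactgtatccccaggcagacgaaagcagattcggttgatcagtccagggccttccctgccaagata
Gm11716 exon 1, chr11:107338050-107338221, plus strand: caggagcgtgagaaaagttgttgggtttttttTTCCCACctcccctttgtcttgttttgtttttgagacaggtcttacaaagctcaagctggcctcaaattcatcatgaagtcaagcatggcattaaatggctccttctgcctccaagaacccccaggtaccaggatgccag

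The *AW011738* window held GTGGGAA once, on the strand of the gene, with its first base 78 bases before the start. Of all 32851 promoter windows of this length, 2097 (6.38%) held this motif on either strand. The *Gm11716* window held neither this motif nor the shorter TGGGAA, which is contained in it and was found in 8397 windows (25.6%). The reverse complement TTCCCAC began at base 33 of *Gm11716* exon 1, and 3.32% of 135118 GENCODE transcripts held the motif on either strand in their first 172 bases. The window of *Malat1* held neither motif, 1 of 2 windows of *Meg3* held the shorter one 2 times, and for *Neat1* and *H19* no window was used here. Apart from these windows, only the exons of *Gm11716* were searched, so that this gene had an opportunity for a match that the other genes did not have. These matches describe letters in a window and are not binding measurements.

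*AW011738* was covered by 96 to 187 reads per control library and by 1492 to 2573 reads per iNICD library. After normalization its level was 4.26 CPM in the lowest control, 5.43 at the control median and 6.90 in the highest control. In iNICD mice the lowest library had 62.4 CPM, the median was 84.6 and the highest had 97.4. The groups did not overlap, and the lowest iNICD library stood 9.04 times above the highest control. The means were 5.43 ± 0.982 CPM in controls and 81.2 ± 12.25 CPM in iNICD mice (SD, n = 6 each), a fitted log2 fold change of 3.90 (SE 0.14), or 14.9-fold, which was the 10th highest of the 13541 tested names in rank (rank 10). Per kilobase of annotated exons, a rough scale for comparing genes, its mean level went from rank 8732 of the tested genes in controls (2.94 CPM per kb) to rank 777 in iNICD mice (44.0 CPM per kb).

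*Gm11716* was already well detected in control LA, with 420 to 678 counts against 1625 to 2002 in iNICD LA. Its normalized level ran from 19.7 through a median of 22.5 to 28.1 CPM in controls. The iNICD libraries ran from 68.6 through a median of 73.7 to 80.3 CPM. All 6 iNICD libraries lay above all 6 controls, and the spread within iNICD mice was narrow, with a coefficient of variation of 5.96% compared with 15.1% for *AW011738*. The means were 23.2 ± 3.27 CPM and 74.0 ± 4.41 CPM (SD, n = 6 each), with a fitted log2 fold change of 1.67 (SE 0.09), or 3.18-fold, at rank 80. Per kilobase, *Gm11716* stood above *AW011738* in both groups, at 49.4 and 157 CPM per kb. For both genes the iNICD libraries above all controls are what the choice of genes fixes, and of all tested genes 2.58% showed the same separation (3.83% a separation in either direction).

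**Figure D1:**
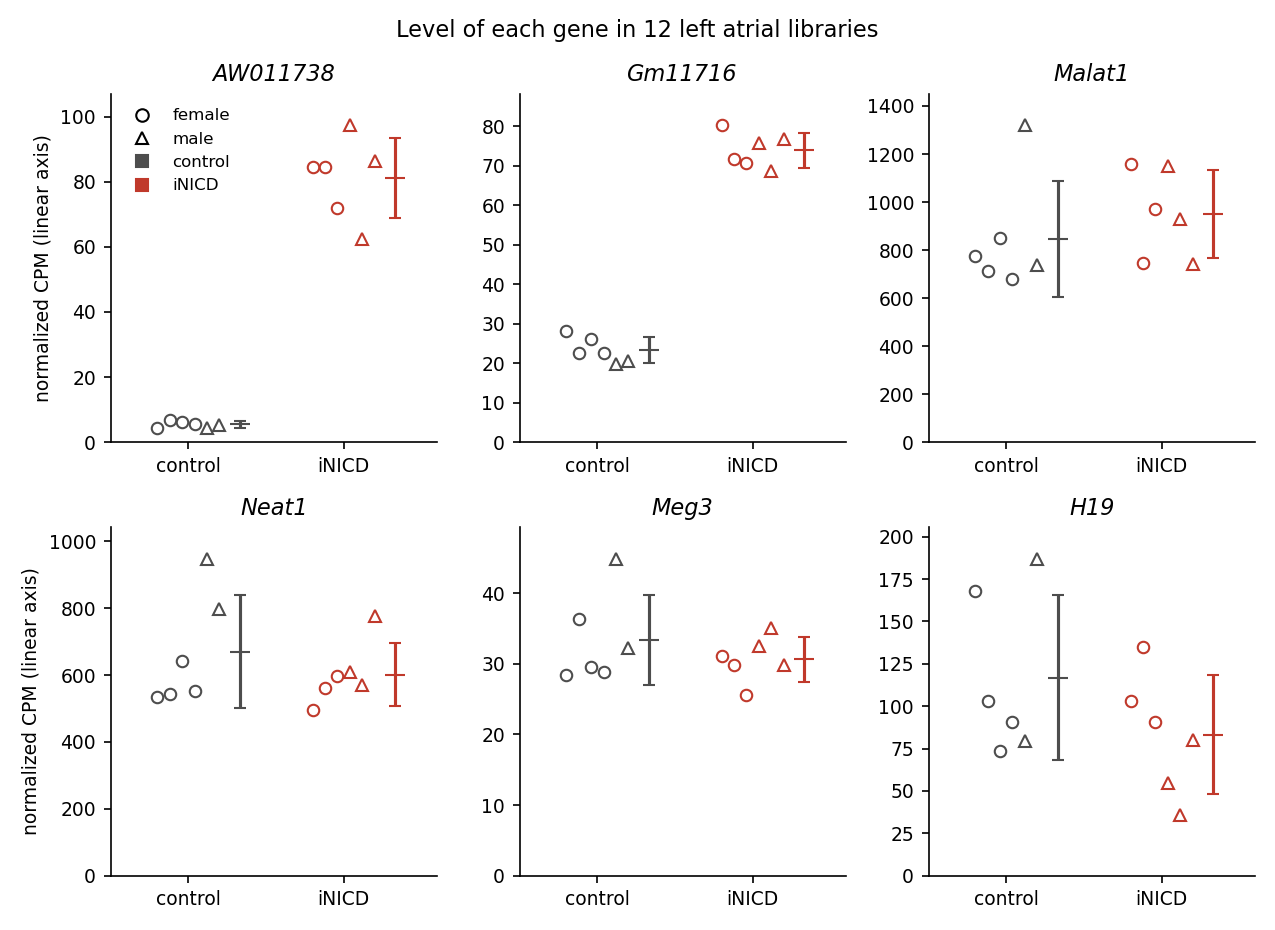
Normalized CPM (linear axes from 0, a scale for each gene) of the 6 genes in the 6 control and 6 iNICD libraries, with circles for females, triangles for males, and bars for the mean and SD of each group. The iNICD points of *AW011738* (62.4 to 97.4) and *Gm11716* (68.6 to 80.3) lie above all their controls, whereas the groups overlap for the other 4 genes.

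The 4 comparison RNAs addressed whether the abundant and imprinted long noncoding RNAs of the LA also differed between the groups, and none of them passed the test, against 558 of 13541 genes in all (4.12%, with 2.78% higher and 1.34% lower). *Malat1* had 678 CPM in its lowest control, a median of 757 and a highest value of 1320, and 742, 949 and 1160 in iNICD mice. The ranges overlapped, 4 of 6 iNICD libraries lay above the control mean, and the highest value of all belonged to control replicate 5. The means were 846 ± 239 and 950 ± 185 CPM, with a log2 fold change of 0.17 (SE 0.17, 95% interval -0.17 to 0.51, adjusted p = 0.658 by the quasi-likelihood test of edgeR, adjusted by Benjamini-Hochberg, as for all adjusted p-values here unless another test is named). 

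*Neat1* ran from 533 through a median of 597 to 948 CPM in controls and from 496 through 583 to 776 CPM in iNICD mice, and 1 of 6 iNICD libraries lay above the control mean. Its log2 fold change was -0.16 (SE 0.16, 95% interval -0.46 to 0.15, adjusted p = 0.644). The 2 male controls lay above every iNICD library, and the 4 female controls lay within the iNICD range. *Meg3* ran from 28.4 through 30.8 to 44.9 CPM in controls and from 25.6 through 30.5 to 35.1 CPM in iNICD mice, again with 1 of 6 iNICD libraries above the control mean. The log2 fold change of *Meg3* was -0.12 (SE 0.12, 95% interval -0.35 to 0.11, adjusted p = 0.632), and the intervals of *Neat1* and *Meg3* both leave out a doubling of the level, a log2 fold change of 1.

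*H19*, a fetal RNA that is largely silenced after birth, varied most of the 6 genes. Its level ran from 73.4 through a median of 96.8 to 187 CPM in controls and from 35.9 through 85.2 to 135 CPM in iNICD mice, with coefficients of variation of 41.3% and 42.3%. The 2 lowest values came from iNICD mice and lay below all controls, but the other 4 iNICD values fell within the control range. The means were 117 ± 48.2 and 83.1 ± 35.1 CPM, with a log2 fold change of -0.49 (SE 0.32, 95% interval -1.11 to 0.13, adjusted p = 0.456), so that a change of the size seen in *Gm11716* would have been outside the interval in the upward direction but a fall of more than 2-fold would not. In order of mean level per kilobase in controls, *Malat1* (121 ± 34.3 CPM per kb) stood above *Gm11716* (49.4 ± 6.95), *H19* (47.5 ± 19.6), *Neat1* (32.2 ± 8.13), *AW011738* (2.94 ± 0.532) and *Meg3* (1.84 ± 0.353). The ranges of *Gm11716* (41.8 to 59.7), *H19* (29.9 to 75.8) and *Neat1* (25.7 to 45.6) overlapped, so that the order of these 3 is not beyond their spread. The lengths merge all annotated exons, 18089 bases for *Meg3* and 20771 for *Neat1*. A gene read mostly from a shorter transcript is therefore placed too low. In iNICD mice *Gm11716* (157 ± 9.39 CPM per kb, range 146 to 171) and *Malat1* (136 ± 26.5, range 106 to 166) had overlapping ranges, and *AW011738* (44.0 ± 6.63), *H19* (33.8 ± 14.3) and *Neat1* (28.9 ± 4.53) followed with overlapping ranges, above *Meg3* (1.70 ± 0.177).

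The libraries held 21432632 to 27182038 counts on genes. *Notch1*, which the transgene's reads also count toward, had 108 to 131 CPM in controls and 2980 to 4080 CPM in iNICD libraries, and the sex-linked genes matched the sex labels in all 12 libraries. Control replicate 5 stood apart from the other controls, with the lowest normalization factor (0.863). It held the highest control values of *Malat1* (1320 against 678 to 852 CPM), *Neat1* (948 against 533 to 797) and *Meg3* (44.9 against 28.4 to 36.4) and the lowest of *Gm11716* (19.7 against 20.5 to 28.1). Without it the log2 fold change of *Malat1* was 0.34, that of *Neat1* -0.03, that of *Meg3* -0.02 and that of *Gm11716* 1.63, and none of the first 3 passed the test. 

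Markers of the cell types of the atrium were compared because the libraries were made from whole tissue, in which fewer cells of a type and less RNA per cell cannot be told apart. Of the 8 cardiomyocyte markers, the sarcomere genes *Tnnt2* (log2 fold change -0.44, adjusted p = 0.0153) and *Myl7* (-0.54, adjusted p = 0.0367) fell (25% of the list, against 1.34% of all tested genes), and the summed level of the list was 65300 to 78900 CPM in controls and 56200 to 66000 CPM in iNICD mice. The *Myl7* call was lost in 8 of 12 fits that left out 1 library. No marker passed the test in the lists for fibroblasts (0 of 8), endothelium (0 of 8), smooth muscle and pericytes (0 of 8), epicardium (0 of 7), leukocytes (0 of 8), adipocytes (0 of 3), neurons and glia (0 of 3) and erythroid cells (0 of 5), against 4.12% of all tested genes, and the summed levels of these lists overlapped between the groups. The erythroid list had the lowest median log2 fold change, -1.30, compared with -0.01 over all tested genes, with summed levels of 59.5 to 247 CPM in controls and 27.2 to 138 CPM in iNICD mice. The epicardial list had a median of -0.29, with 0 of 7 markers above 0, and the cardiomyocyte list had one of -0.25. The medians of the other lists ran from -0.12 to 0.14. The part of tissue makeup in the values of the 6 genes was not tested.

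The sex of the mice was not used to choose the genes and could be tested for all 6. None passed, with 39 of 13541 genes past the threshold for sex (0.288%). *Neat1* came nearest, at a female minus male log2 difference of -0.42 (SE 0.11, unadjusted p = 0.00191, adjusted p = 0.13, edgeR). In controls the 4 females had 533 to 643 CPM and the 2 males 797 and 948 CPM, whereas in iNICD mice the 3 females had 496 to 596 CPM and the 3 males 570 to 776 CPM. The groups of females and males were therefore apart in controls and overlapped in iNICD mice, and the Wald test of DESeq2 gave an adjusted p = 0.0154 for the same contrast. *Meg3* was at -0.24 (SE 0.10, adjusted p = 0.318), and *AW011738* (0.06, adjusted p = 0.874) and *Gm11716* (0.14, adjusted p = 0.478) showed small differences with standard errors of 0.14 and 0.08.

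Whether iNICD and control mice differed to an unlike degree in the 2 sexes was tested with the interaction of sex and genotype, which no gene passed (0 of 13541, 0%; 501 genes at unadjusted p under 0.05, edgeR). *H19* had the largest interaction of the 6 genes, a log2 value of 1.24 (SE 0.56, unadjusted p = 0.0492, adjusted p = 0.916), which ran from 0.49 without control replicate 6 to 1.73 without control replicate 5. Its mean was 109 CPM in females of both groups, but 133 CPM in control males and 56.8 CPM in iNICD males. The 3 iNICD males (35.9 to 79.8 CPM) lay below the 3 iNICD females (90.5 to 135 CPM), and the 2 control males stood far apart at 79.3 and 187 CPM. For *AW011738* the interaction was -0.23 (SE 0.28), and for *Gm11716* it was -0.30 (SE 0.15, unadjusted p = 0.0764). *Gm11716* was lower in control males (19.7 and 20.5 CPM) than in control females (22.5 to 28.1 CPM), while iNICD males and females overlapped at 68.6 to 76.8 and 70.6 to 80.3 CPM.

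**Figure D2:**
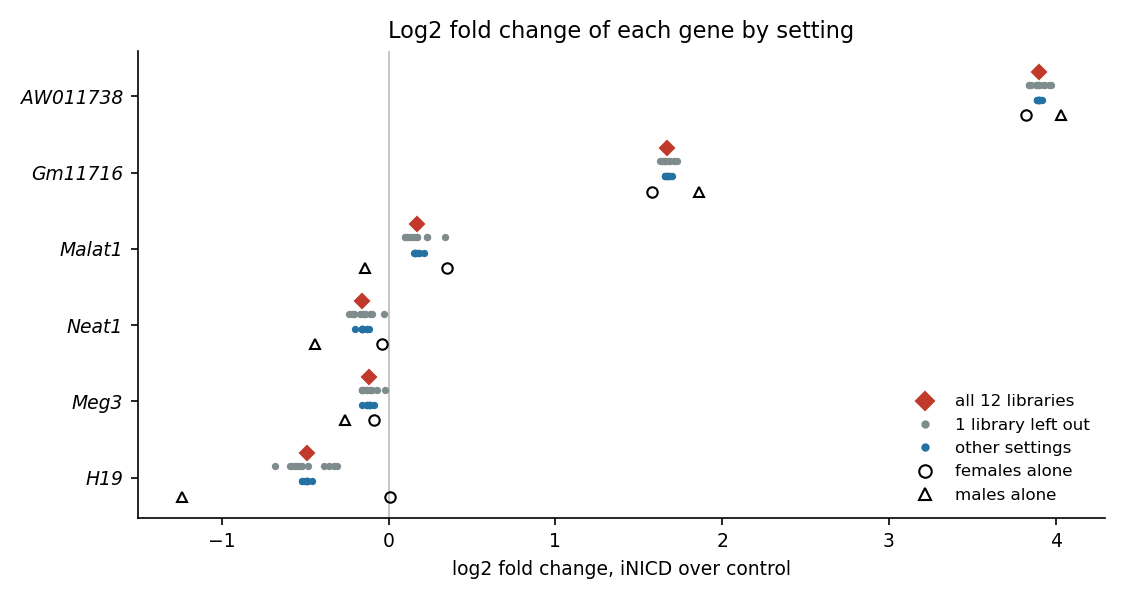
Fitted log2 fold change of each gene, iNICD over control, with all 12 libraries (diamonds), with each library left out in turn (gray), under other normalizations, filters, tests and covariates (blue), and in females (circles) or males (triangles) alone. *AW011738* stays between 3.82 and 4.03 and *Gm11716* between 1.58 and 1.86, whereas *H19* spreads from -1.24 in males to 0.01 in females.

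*Pitpnc1* was examined because *Gm11716* lies in its introns. It rose from 178 ± 51.0 to 351 ± 31.8 CPM (log2 fold change 0.98, SE 0.18, adjusted p = 0.00773), with 93.1, 207 and 214 CPM at the lowest, median and highest of the controls and 322, 348 and 409 CPM in iNICD mice. The groups did not overlap, and the lowest value again belonged to control replicate 5. Per 100 *Pitpnc1* reads there were 14 ± 4.22 *Gm11716* reads in controls (9.73 to 21.1) and 21.2 ± 2.22 in iNICD mice (18.5 to 24.7), and these ranges overlapped only through control replicate 5 at 21.1. Because *Gm11716* was chosen for its rise, the higher ratio is a description and was not tested. Per kilobase of exon, *Gm11716* stood above *Pitpnc1* in both groups, at 49.4 against 26.9 CPM per kb in controls and 157 against 53.1 CPM per kb in iNICD mice. The study describes the reads as stranded, but the labels name the TruSeq RNA kit v2, which does not keep strand, and the strand setting of the counting is not given in the sources used here. Without strand, reads of *Gm11716* and reads of unspliced *Pitpnc1* cannot be told apart.

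**Figure D3:**
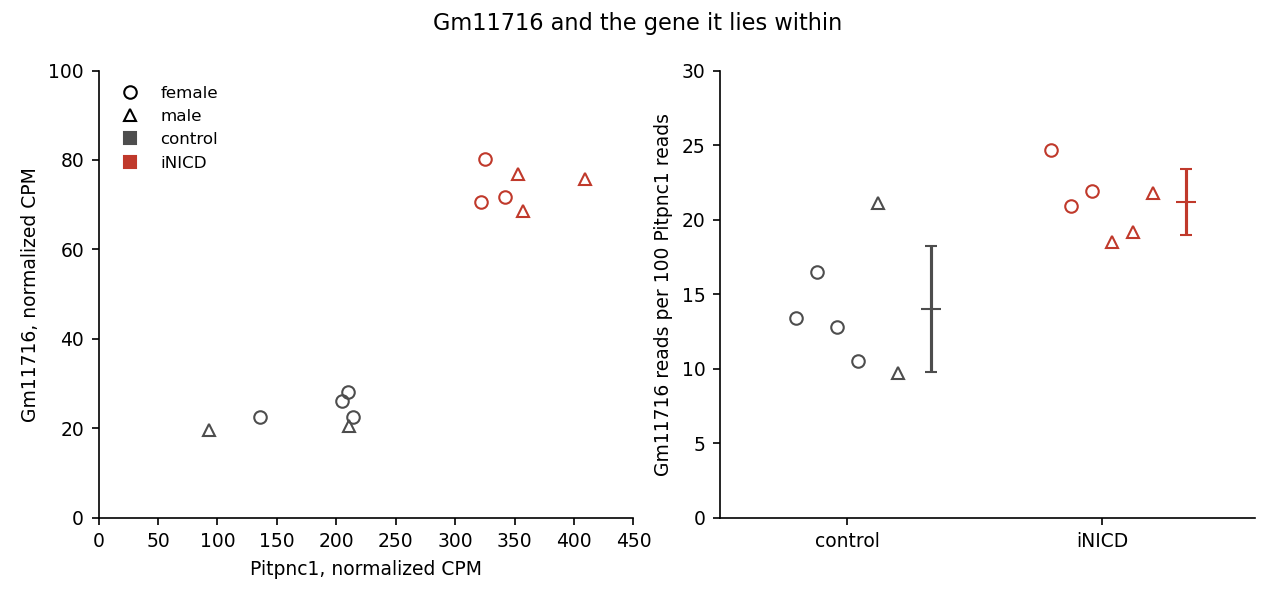
Left, normalized CPM of *Gm11716* against *Pitpnc1* in each library (linear axes); right, *Gm11716* reads per 100 *Pitpnc1* reads by library, with the mean and SD of each group of 6. Both genes are higher in iNICD libraries, and the ratio is 14 ± 4.22 in controls and 21.2 ± 2.22 in iNICD libraries, a description since *Gm11716* was chosen for its rise.

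The genes on either side of each of the 6 were compared next, 5 annotated genes per side. Of the 10 neighbors of *AW011738*, 6 were tested and none passed the threshold, against 4.12% of all genes. Nearest was *Isg15*, an interferon-induced ubiquitin-like protein whose start lies 2.5 kb away on the opposite strand, with 3.18 to 10.7 CPM in controls and 5.17 to 13.4 in iNICD mice (log2 fold change 0.72, SE 0.33, adjusted p = 0.279; 1.1 and adjusted p = 0.0282 without control replicate 2). *Agrn*, the extracellular matrix proteoglycan agrin, starts 5.8 kb away and was at 76.3 to 123 CPM in controls and 129 to 167 CPM in iNICD mice (0.39, SE 0.11, adjusted p = 0.0712). Its groups did not overlap, and it passed the threshold with the DESeq2 Wald test (adjusted p = 0.0166), the edgeR exact test, sex in the model, the replicate block by title number and without control replicate 5. *Perm1*, a regulator of oxidative metabolism in muscle, was at -0.06 (adjusted p = 0.794), *Plekhn1* at 0.03 (adjusted p = 0.914), *9430015G10Rik* at -0.07 (adjusted p = 0.866) and the nucleolar gene *Noc2l* at -0.39 (adjusted p = 0.167).

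Beside *Gm11716*, 3 genes were tested and only *Pitpnc1* passed, where of all tested genes 4.12% passed. The nucleolar gene *Nol11* was at -0.17 (SE 0.09, adjusted p = 0.346) and the proteasome subunit *Psmd12* at -0.19 (SE 0.13, adjusted p = 0.501). None of 4 tested neighbors of *Malat1*, of 3 of *Neat1* and of 4 of *H19* passed, which for so few genes is near that share, and none of those of *Meg3* was expressed enough to be tested. Among them *Ltbp3*, *Sssca1* and *Frmd8* had log2 fold changes of -0.01, -0.08 and -0.02. Near *H19*, *Prr33* was at 0.52 (SE 0.16, adjusted p = 0.102, with 4 alternatives past the threshold, at 0.0154 without control replicate 5), *Lsp1* at 0.20, *Mrpl23* at -0.09 and the troponin gene *Tnnt3* at 0.27, which also passed without control replicate 5.

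**Figure D4:**
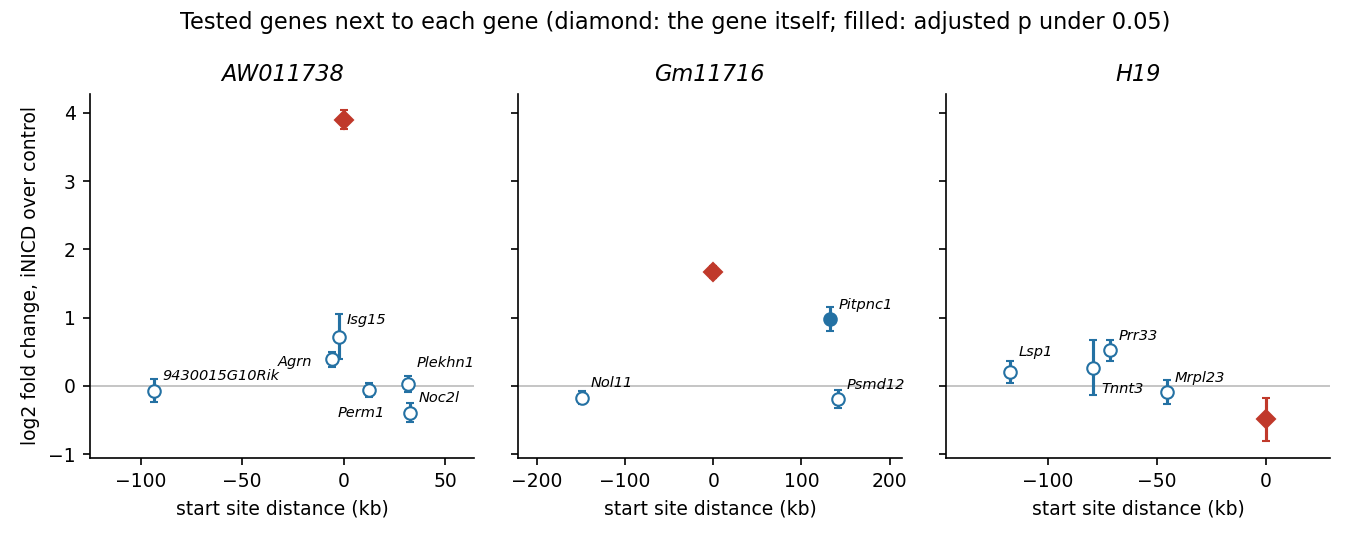
Log2 fold change, iNICD over control, with its SE, of the tested genes next to *AW011738*, *Gm11716* and *H19*, against the distance of their start from that of the gene itself in kilobases (negative is toward lower positions). *AW011738* at 3.90 stands far above its neighbors, which lie between -0.39 and 0.72, and the filled point is *Pitpnc1* at 0.98.

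Across the class, GENCODE types 692 of the tested genes as long noncoding, of which 20 rose and 5 fell (3.61%, against 4.12% of all tested genes), with a median log2 fold change of 0.05 against -0.01. *Gm11716* is 1 of the 20, and *AW011738*, typed as coding, is not counted. Of the 20, 11 had fewer than 6 control libraries above 1 CPM and so passed the filter with the help of the iNICD libraries, where they are high, and 3 (*2900052N01Rik*, *Gm28867* and *Gm32443*) had no control above it. The count of genes that rose is therefore a description, as are the values that follow. The highest log2 fold change was that of *2900052N01Rik*, with 0.0925 to 0.655 CPM in controls and 6.24 to 16.6 CPM in iNICD mice (5.14, SE 0.39), followed by *4833422C13Rik* (3.47, with 0.435 to 1.14 and 5.25 to 11.6 CPM) and *Gm32443* (3.11, with 0 to 0.621 and 1.13 to 3.41 CPM), which equals *Gm12409* to 2 decimals. By absolute level *Gm11716*, at 73.7 CPM at the iNICD median, was far above these 3. The lowest was *Gm13054*, which overlaps the natriuretic peptide gene *Nppa* on chromosome 4 and fell from 19.8 ± 3.63 to 3.96 ± 1.53 CPM (log2 fold change -2.32), beside a log2 fold change of -2.33 for *Nppa* itself. *Gm42937* fell by 1.29 and *Atcayos*, which overlaps *Nmrk2*, fell by 0.69 on the log2 scale. 

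Other long noncoding genes that rose also lay within 10 kb of a tested coding gene that rose, or overlapped one, as *Gm11716* does with *Pitpnc1*, and they are listed as a description chosen after these values were seen. They were 6 of the 13 that had a tested coding gene this near, out of the other 19, while 27 of 531 long noncoding genes that did not pass and 1 of 5 that fell lay by a coding gene that had changed. The 6 were *4833422C13Rik* with *Ssbp2*, *Gm37735* with the neuregulin receptor *Erbb4*, *Gm7628* with the semaphorin receptor *Plxnb1*, *Gm2415* with *Ctdspl*, *Gm32443* with *Fam110c*, and *Snhg14* with *Snrpn*, and the filter was passed with the help of the iNICD libraries by *4833422C13Rik*, *Gm37735*, *Gm7628* and *Gm32443*. *AW011738* had 2 tested coding genes within 10 kb and neither passed. Where such genes overlap, the limit on strand given for *Gm11716* holds for them too.

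**Figure D5:**
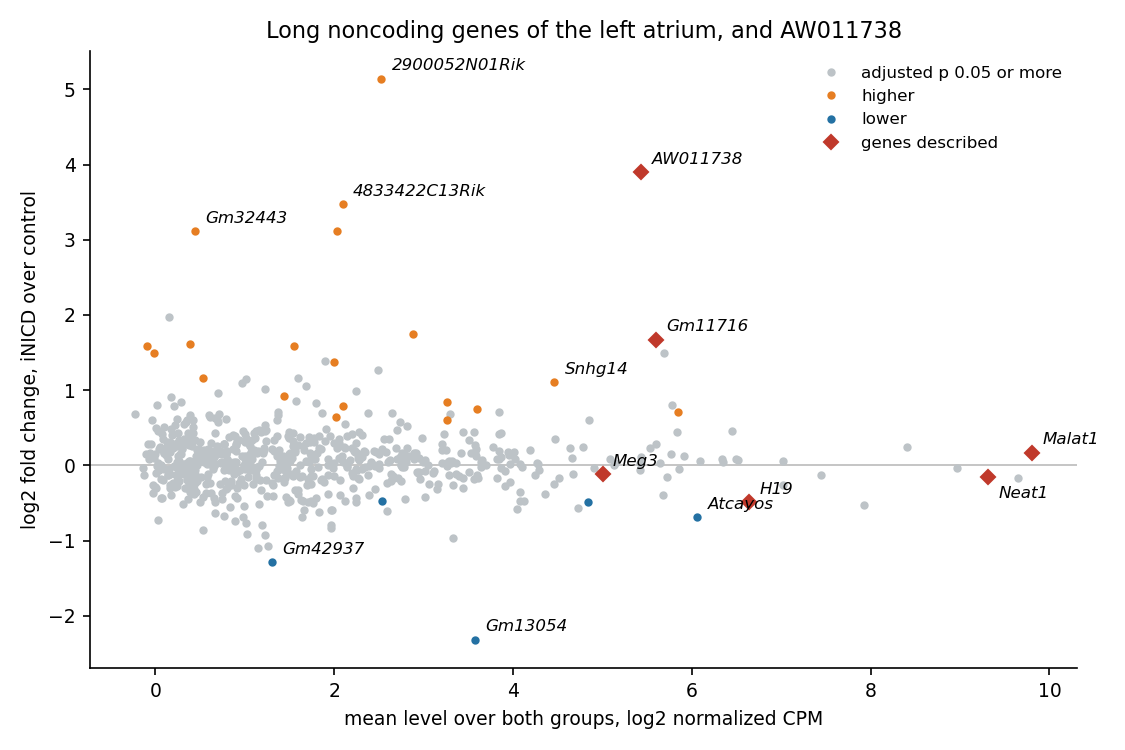
Log2 fold change, iNICD over control, against mean level (log2 normalized CPM over both groups) for the 692 tested genes that GENCODE types as long noncoding, and for *AW011738*, with genes past the threshold in color and the 6 genes described as diamonds. *AW011738* (3.90) and *Gm11716* (1.67) lie above most genes of like level, and *Malat1*, *Neat1* and *Meg3* lie near 0.

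Among 41 tested reference long noncoding RNAs with a known role or name, a list that includes the 4 comparison genes, 1 rose and 0 fell (2.44%, against 2.78% higher of all tested genes), with a median log2 fold change of -0.04. The gene that rose was *Snhg14*, the host transcript of imprinted small nucleolar RNAs, from 13.9 ± 5.85 to 30.1 ± 11.7 CPM (log2 fold change 1.11, SE 0.27, adjusted p = 0.0372), with overlapping groups, and its call was lost in 9 of 12 fits that left out 1 library. The heart-enriched *Mhrt* was at -0.04 (adjusted p = 0.943), *Gas5* at -0.15 (adjusted p = 0.566) and *Tug1* at 0.06 (adjusted p = 0.636). *Snhg11* had a log2 fold change of 3.36 (SE 1.30, adjusted p = 0.194) with a large spread in iNICD mice, 18.4 ± 31.2 CPM.

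The imprinted domains of *Meg3* and *H19* were examined gene by gene. In the Dlk1-Dio3 domain 7 genes were tested and none passed (against 4.12% of all tested genes), with a median log2 fold change of -0.12. The long noncoding RNAs that lie downstream of *Meg3*, *Rian* and *Mirg*, were at -0.27 (adjusted p = 0.635) and -0.23 (adjusted p = 0.75), in the same direction as *Meg3*. In the Igf2-H19 domain 6 genes were tested, and 1 was past the threshold (16.7%, against 4.12% of all tested genes). This was the fast skeletal troponin *Tnni2*, at 0.414 to 2.81 CPM in controls and 2.38 to 5.20 CPM in iNICD mice (log2 fold change 1.68). *Tnni2* passed the filter with the help of the iNICD libraries, where it is high, so that its values are a description, and it was no longer past the threshold in 8 of 12 fits that left out 1 library. The growth factor *Igf2* was at 3.69 ± 3.34 and 1.91 ± 0.791 CPM (-0.95, adjusted p = 0.332). Among 36 tested imprinted genes from the whole genome, 3 rose and 0 fell (8.33% higher, against 2.78% of all tested genes). These were *Igf2r*, which clears IGF2 (0.49, adjusted p = 0.00492), *Mest* (2.83, adjusted p = 0.0128), whose iNICD values spread from 17.4 to 227 CPM, and *Snrpn*. The groups of *Mest* overlapped, with a highest control of 18.1 CPM, and its log2 fold change ran from 2.12 to 3.04 with 1 library left out. *Snrpn* (1.06, adjusted p = 0.0217), which neighbors *Snhg14*, had overlapping groups and lost its call in 4 of 12 fits that left out 1 library.

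The genes that encode proteins found in paraspeckles with *Neat1* and in nuclear speckles with *Malat1* were compared by their RNA. Of 37 tested genes for paraspeckle proteins, 0 rose and 2 fell (5.41% called, against 4.12% of all tested genes), *Hnrnph3* (-0.23, adjusted p = 0.0427) and *Rbm14* (-0.39, adjusted p = 0.0439), both RNA-binding proteins, and the median log2 fold change of the list was -0.05. Each of the 2 calls was lost in at least 8 of 12 fits that left out 1 library (8 for *Hnrnph3*, 10 for *Rbm14*). Of 36 tested genes for nuclear speckle proteins none passed, with a median of -0.06.

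The genes whose levels followed the 2 chosen transcripts most closely over the 12 libraries were genes with the same step between the groups. By Pearson's r of log2 CPM, *AW011738* was nearest to *Notch1* (0.995), the channel subunit *Lrrc8e* (0.993), the scaffold protein *Mpp2* (0.990), *Nup62cl* (0.987) and *Pmm1* (0.987). *Gm11716* was nearest to *Notch1* (0.988), *Mpp2* (0.987), the phospholipase *Pla2g3* (0.987), *Nup62cl* (0.986) and *AW011738* (0.983). After the group means were taken out, the correlation of *AW011738* with *Gm11716* was 0.146 over 12 libraries, and the genes nearest to them were others, *Zfp13*, *Plag1* and *Tab1* for *AW011738* (0.882 to 0.902) and *A730011C13Rik*, *Fam118b* and *1700088E04Rik* for *Gm11716* (0.884 to 0.948). The nearest genes to *Malat1* were *Tmem30a*, *Dmxl1* and *Nipa2* (0.949 to 0.967), to *Neat1* the endothelial receptor *Flt1*, *Map3k8* and *Gdf6* (0.897 to 0.911), to *Meg3* *Psmd14*, *Znhit6* and *Camk2d* (0.935 to 0.968), and to *H19* *Vhl*, *AC154760.1* and *Tpd52l1* (0.882 to 0.892). These are descriptions over libraries that share depth and group, chosen as the highest of all tested genes.

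Within a group the level is independent of the contrast that chose the genes, and 12 such relations were computed over 6 libraries each. Among the 6 iNICD libraries, *AW011738* against *Notch1* had Pearson's r = 0.714 (exact permutation p = 0.108, adjusted p = 0.325) and Spearman's rho = 0.6 (exact permutation p = 0.242, adjusted p = 0.846), and r = 0.5 without the 2 libraries farthest from the *Notch1* median. *Gm11716* against *Notch1* had r = 0.139 (exact permutation p = 0.757) and rho = 0.143 (exact permutation p = 0.803). *AW011738* against *Gm11716* had r = 0.731 (exact permutation p = 0.0972, adjusted p = 0.325) in iNICD mice and r = -0.0676 (exact permutation p = 0.887) in controls, where it was 0.8 without the 2 libraries farthest from the *Gm11716* median and so rests on those libraries. *Meg3* against *Rian*, its downstream partner, had r = 0.896 in controls (exact permutation p = 0.0194, adjusted p = 0.233; rho = 0.771) and r = 0.362 in iNICD mice, where it turned to -0.423 without 2 libraries. *Malat1* against *Neat1* had r = 0.779 in controls and -0.560 in iNICD mice (exact permutation p = 0.0514 and p = 0.274, lowest adjusted p = 0.308), and the iNICD value turned to 0.916 without the 2 libraries farthest from the *Neat1* median. None of the 12 relations passed after adjustment, the lowest adjusted p being 0.233.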

How the data were processed

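RNA from the LA of each mouse was depleted of ribosomal RNA and sequenced by the authors, who deposited unnormalized read counts by gene name and a length in bases per name, a further deposited column (another unit) used for levels per kilobase. The submitters' processing notes name cutadapt, STAR 2.4.2a, featureCounts of Subread and edgeR on mm10, while the methods also describe TopHat2 with HTSeq for the LA. Neither the counter nor its strand setting is named in the deposited table, which holds 37 mitochondrial genes. Titles and descriptions gave group, number and sex. Each library is labelled as its own biological replicate, and no 2 were copies of each other.

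Names above 1 CPM in 6 or more libraries, 13541 in all, were fitted over the 12 libraries with TMM factors in edgeR 4.0.16 (R 4.3.3) by its two-sided quasi-likelihood test. Adjusted p-values are Benjamini-Hochberg values over these names, with a threshold of 0.05. The authors' exact test, also of edgeR, was an alternative. Values are normalized CPM, and standard errors come from the F statistic. Sex was tested with genotype in the model. Depth of 21432632 to 27182038 counts per library leaves the counting error of the 6 genes below the spread between mice. Correlations over all 12 libraries used log2 CPM with a pseudocount of 0.1 and no test. Those within a group used log2 CPM without a pseudocount and exact permutations, two-sided. Positions are from GENCODE M21, which matched 54106 of 54658 names, and promoter windows, present for 4 of the 6 genes, are from RefSeq on GRCm38.p6. The code was tested on simulated data.

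The 6 genes, the gene lists and the tests were chosen with earlier results of these data known. Named genes are the 6, *Notch1*, their tested neighbors, up to 4 called genes each way of each list, the 5 genes nearest to *AW011738* and *Gm11716* by correlation and 3 to each gene after group means, and the 3 highest and 3 lowest called long noncoding genes whose mean reached 1 CPM. Other genes of the imprinted domains and of the reference list were named after their values were seen. Alternatives were other normalizations, filters, tests (DESeq2 1.42.0) and covariates, each sex alone, replicate blocks and each library left out. Typing by RefSeq was an alternative chosen after seeing the data. RA libraries were not analysed here, and some genes are not reported here.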

Additional observations from a re-analysis of the deposited data

Results flagged for a closer look

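In 14 groups of 6 libraries (the 6 genes and *Pitpnc1*, in controls and in iNICD mice), 1 value stood apart from the others of its group by Dixon's ratio, and chance flags about 1 in 20 groups. This was *Malat1* in control replicate 5, at 1320 CPM against 678 to 852 CPM in the other 5 controls, with a gap of 0.729 of the whole range. Without this library the log2 fold change of *Malat1* was 0.34 in place of 0.17.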

How the results depend on the processing

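*AW011738* ranged from 3.82 to 4.03 and *Gm11716* from 1.58 to 1.86 in log2 fold change over all alternatives, the highest value of *Gm11716* being that in male libraries alone (1.86). *Malat1* (-0.14 to 0.35), *Neat1* (-0.44 to -0.03), *Meg3* (-0.26 to -0.02) and *H19* (-1.24 to 0.01) passed the threshold under none of the alternatives run. In males alone *Malat1* turned to -0.14, and in females alone *H19* turned to 0.01. The sex difference of *Neat1* passed with DESeq2 (-0.43), and with 1 library left out that of *AW011738* ran from -0.01 (without iNICD replicate 5) to 0.15, that of *Malat1* from -0.30 to 0.03 and the interaction of *Meg3* from -0.10 to 0.37 (0.03 and -0.10 without control replicate 5). The cause of these changes was not tested.

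The number of long noncoding genes that rose (20) was 33 without a filter, 10 in females, 1 in males, 13 with the replicate block by title number and 11 to 26 with 1 library left out. The number that fell (5) was 9 without a filter, 10 with filterByExpr, 13 with DESeq2, 10 with the exact test, 3 in females, 0 in males, 3 with RefSeq types (18 rose) and 4 to 12 with 1 library left out (12 without control replicate 5). Of neighbors, 1 rose, but 2 with library totals, the exact test, sex or either replicate block, 3 with DESeq2, 0 in males and 1 to 4 with 1 library left out (4 without control replicate 5). Of the 6 gene lists, 5 genes rose and 2 fell. These were 0 and 0 in males, and 2 to 8 and 0 to 3 with 1 library left out. The fallen were 0 with library totals, without a filter, in females and with either block, and 1 with the exact test or sex. Of the markers, 2 fell, but 1 with library totals or in females, 5 with DESeq2, 4 with the exact test, 0 in males and 1 to 3 with 1 library left out. With fewer libraries in each sex fewer genes passed, 395 in females and 8 in males of 558 in all. DESeq2 called 615 genes higher and 444 lower (377 and 181 in the fit reported). Without control replicate 5, 799 passed.

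Same-numbered libraries deviated together in 4 of 6 pairs by title numbers (correlations -0.152 to 0.375) and in 4 of 6 by description numbers (-0.108 to 0.375), which exchange 2 controls, and 3 and 2 of the 6 controls correlated best with their own number, so that the numbers were not taken to pair mice. With the block, 468 genes passed by title numbers and 421 by description numbers. The fold of *AW011738* rests on 96 to 187 counts per control library, and its precision is limited by the spread between mice (coefficient of variation 18.1% in controls).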
